A study of Mus musculus with 32 samples.

Results

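Enzymes and binding proteins that cut, modify or guard transfer RNA (tRNA) were examined in single mouse embryos in which a tRNA fragment had been targeted. The 9 genes, Ang, Rnh1, Nsun2, Trdmt1, Alkbh1, Pus1, Pus7, Elac2 and Ssb, were taken by symbol from a table of 34223 genes, by a rule that uses names and no measured value. Each symbol matched 1 row.

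tRNA fragments arise when a nuclease cuts a tRNA, most often in the anticodon loop, or when the trailer of a precursor tRNA is released. Methyl groups and pseudouridines placed on the tRNA change its fold and its sensitivity to nucleases, and loss of cytosine methylation is known to make some tRNAs easier for angiogenin to cut. In the mouse, tRNA fragments are abundant in sperm, and the transcripts of a 2-cell embryo are a mixture of RNA stored in the oocyte and RNA newly made from the embryo's own genome.

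mRNA sequencing was carried out on single wild-type embryos that had reached the late 2-cell stage, 28 h post in vitro fertilisation. In the 16 Val_LNA embryos, H3.3-GFP mRNA had been microinjected with an antisense oligonucleotide that contains locked nucleic acid (LNA) and targets tRFValCAC, a fragment of a valine tRNA. In the 16 Ctrl_LNA embryos, the same mRNA had been injected with a scrambled LNA oligonucleotide. GFP-positive embryos were kept, so both groups carry the injected H3.3-GFP mRNA, and there was no uninjected group. The question the comparison addresses here is whether the mRNAs of enzymes that make, modify or protect tRNA differed when the fragment was targeted. The libraries measure polyadenylated RNA, so neither the fragment, nor tRNA, nor any modification was measured. An embryo is named by its group and its library number.

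Libraries held between 2592925 and 6259870 reads assigned to genes. Ctrl_LNA 48 stood apart: 7276 genes had at least 1 read in it, against 16687 to 20200 in the other 31 embryos. It had 0 reads of Ang, Rnh1, Trdmt1, Pus1 and Pus7, 1.05 normalised counts of Elac2 and of Ssb, and the highest Nsun2 of all 32 embryos, so the members' fold changes are given with and without it. Library numbers form 4 unbroken runs of 8 (Val_LNA 1 to 8 and 13 to 20, Ctrl_LNA 31 to 38 and 43 to 50), called lower and upper runs here; the labels do not call them batches. All 10 listed transcripts of the 2-cell stage and all 8 of the oocyte averaged at least 10 normalised counts in both groups. The 8 markers of cumulus and granulosa cells summed to 6.59 to 156 in Val_LNA and 0 to 159 in Ctrl_LNA embryos, with Fshr at 0 in every Ctrl_LNA embryo. The 6 markers of sperm and spermatids summed to 0 to 60.6 in Val_LNA and 0 to 50.4 in Ctrl_LNA embryos, with Tnp2 at 0 in every Ctrl_LNA embryo. The 8 markers of blastocyst lineages summed to 154 to 635 in Val_LNA and 4.2 to 912 in Ctrl_LNA embryos, with Sox17 at 0 in every Val_LNA embryo.

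Levels are first described per kilobase of exon (normalised count divided by exon length), the scale on which genes can be compared with each other. Ssb, which encodes the La protein that binds the uridine-rich 3′ ends of new RNA polymerase III transcripts, was the most abundant member, with a median of 422 normalised counts per kb over the 32 embryos. It ranked first among the 9 genes in all 16 Val_LNA embryos and in 15 of 16 Ctrl_LNA embryos. Ssb lay above Elac2, the next gene, in 32 of 32 embryos. Elac2, the tRNase Z that cuts the 3′ trailer from precursor tRNA, had a median of 103 per kb.

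Pus1 had a median of 66.2 per kb and Nsun2 65.7, and these neighbours were not separated: Pus1 lay above Nsun2 in 15 of 32 embryos. Elac2 lay above Pus1 in 22 of 32 embryos, so that step too was within the spread between embryos. Alkbh1 followed with 36.7 per kb and lay below Nsun2 in 26 of 32 embryos.

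Pus7 had a median of 21.2 per kb and Rnh1 19.9, and Pus7 lay above Rnh1 in 16 of 32 embryos, 12 of them Val_LNA and 4 Ctrl_LNA. Trdmt1 was the lowest of the genes that were detected in most embryos, at 9.16 per kb, and Rnh1 lay above it in 21 of 32. Ang had a median of 0. By mean normalised count over all embryos, Ssb lay above 97.4% and Nsun2 above 94.2% of the genes in the table, and Trdmt1 above 69.7%.

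**Figure D1:**
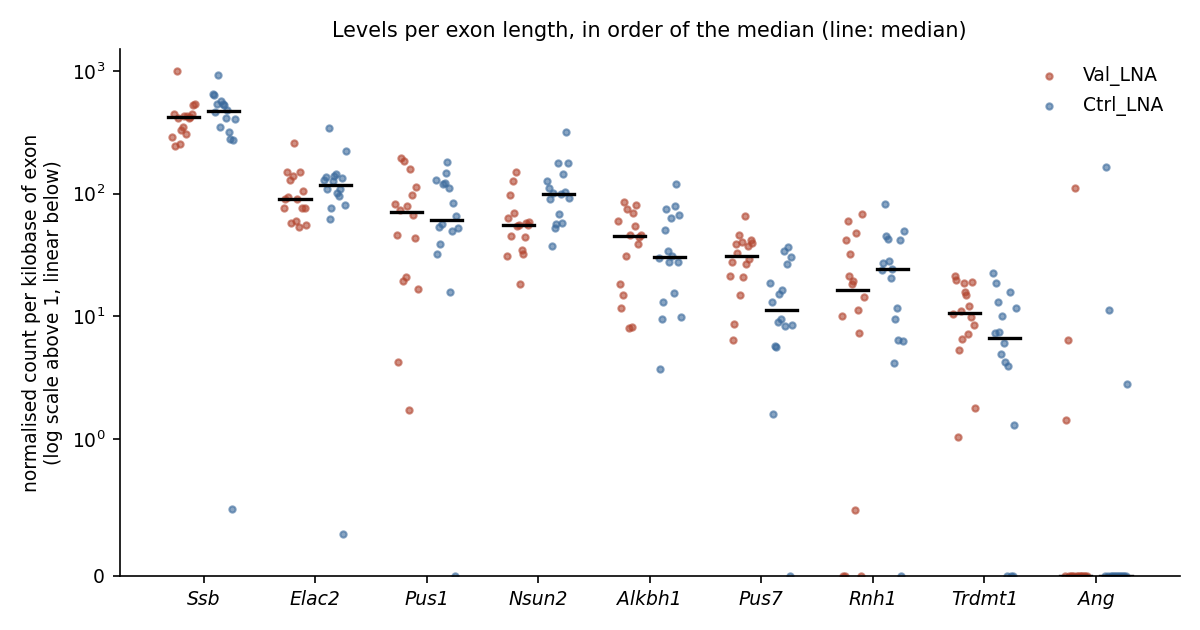
Level of each of the 9 genes in every embryo, in normalised counts per kilobase of exon (log scale above 1, linear below), with Val_LNA left of Ctrl_LNA and genes in the order of their median over 32 embryos. Each point is 1 embryo and each line a group median. The group medians of Ssb lie above those of the other genes, and Ang is at 0 in most embryos of both groups.

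In the comparison of Val_LNA with Ctrl_LNA embryos, no member passed the test at an adjusted p under 0.05 among the 8 members that could be tested. Pus7 and Nsun2 stood closest to the threshold, with Pus7 higher and Nsun2 lower in Val_LNA embryos on average. Ang was below the filter on low values, which kept genes that reached 10 normalised counts in 8 or more embryos. The test was limma on log2(normalised count + 1) with Benjamini-Hochberg adjustment over all 15559 tested genes, and it called 341 of them (2.19%), 137 higher (0.881%) and 204 lower (1.31%) in Val_LNA embryos. Each library is a whole embryo, so its cells cannot be told apart. Normalised counts are divided by a size factor, so they give relative levels and not the amount of RNA per embryo. Pus7 and Nsun2 were also the 2 of 8 members with an unadjusted p under 0.05, a level that 14.7% of all tested genes reached.

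Other tools gave between 0 and 1 called member. edgeR's quasi-likelihood test on the recovered reads called 0 of 8 members, and 1.21% of all genes; 2 members and 10.8% of all genes had an unadjusted p under 0.05. DESeq2 called 1 of 8, Nsun2, which it placed lower in Val_LNA embryos, and 3.52% of all genes (2.19% lower). limma with array weights, which give unusual embryos less weight, called 1 of 8, Pus7, which it placed higher, and 5.89% of all genes (2.27% higher). An exact Wilcoxon rank sum test, adjusted over all tested genes, called Pus7 as well, and 4.15% of all genes (1.81% higher). Without Ctrl_LNA 48, limma called 0 of 8 members and 4.2% of all genes, with 2 members at an unadjusted p under 0.05, which 16.7% of all genes reached.

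The median log2 fold change over the 8 tested members was 0.16, beside 0.26 over all tested genes. Without Ctrl_LNA 48 these medians were -0.29 for the members and 0.068 for all tested genes. Of the members, 5 had a positive and 3 a negative log2 fold change, and 3 and 5 without that embryo. Each log2 fold change below is Val_LNA minus Ctrl_LNA on the log2(normalised count + 1) scale, and each 95% interval is not adjusted for the number of genes.

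**Figure D2:**
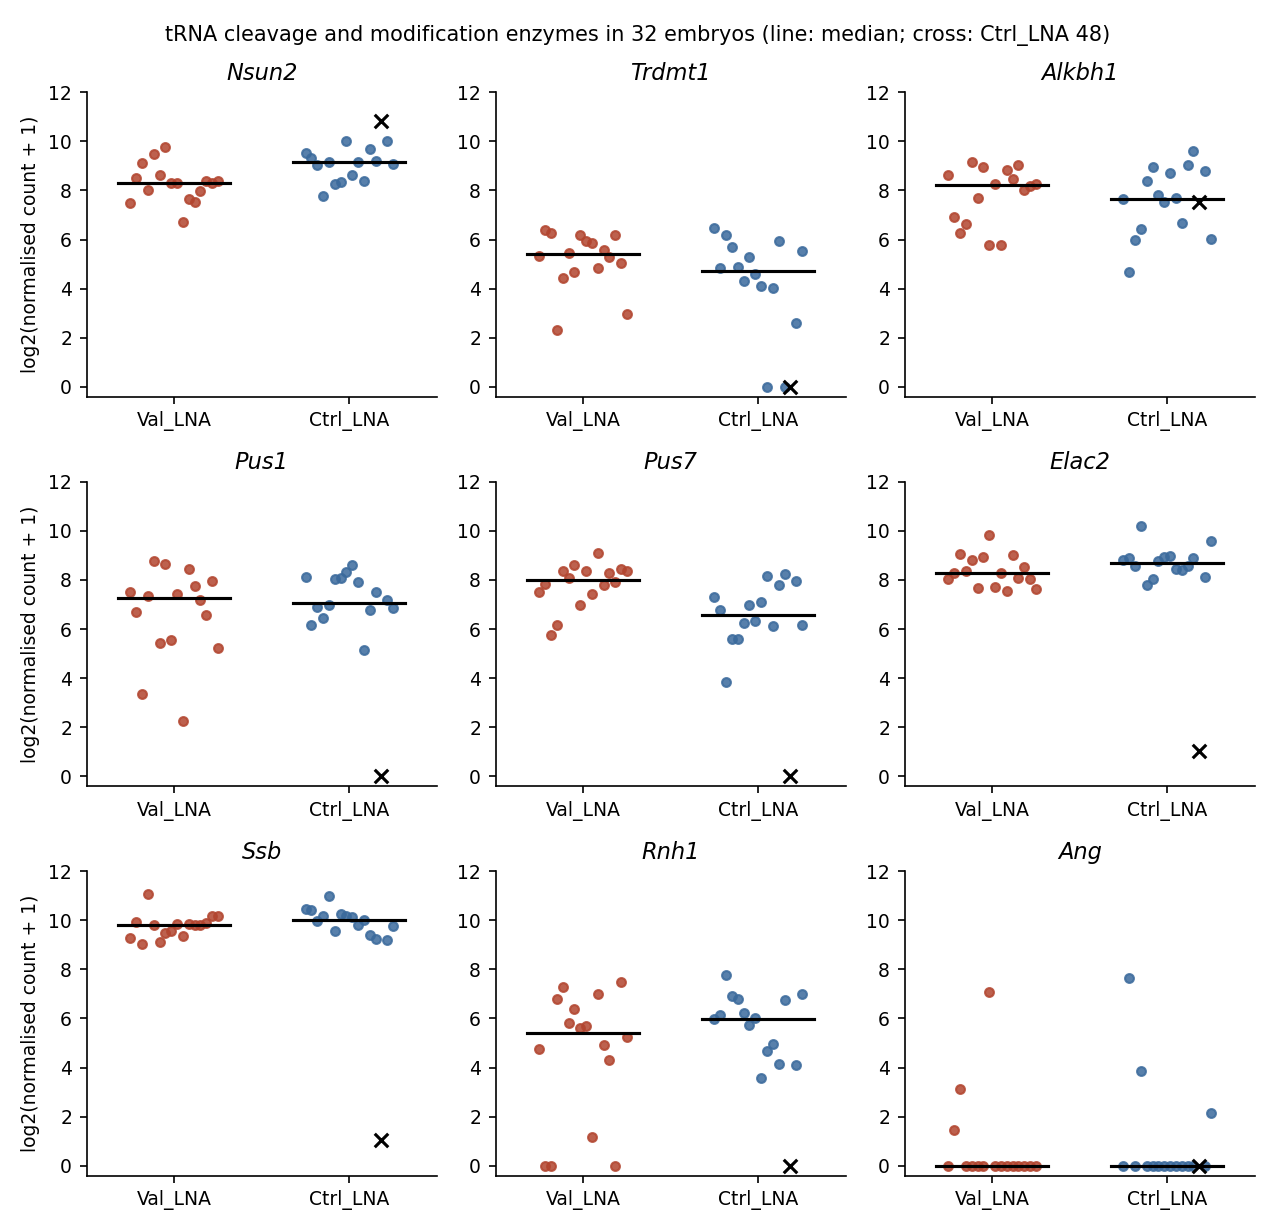
log2(normalised count + 1) of each gene in every embryo, with Val_LNA left of Ctrl_LNA. Each point is 1 embryo, the line is the group median and the cross is Ctrl_LNA 48; the groups overlap for all 9 genes, with Pus7 mostly higher and Nsun2 mostly lower in Val_LNA embryos.

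The cutting side is represented by Ang and its inhibitor Rnh1. Ang, angiogenin, is a secreted RNase of the RNase A family that cuts tRNA in the anticodon loop under stress, and it lies on chromosome 14 at 51091150 to 51102009 on the plus strand (mouse build mm10). It was detected in 3 of 16 Val_LNA embryos, at 1.72 normalised counts in Val_LNA 2, 7.8 in Val_LNA 3 and 134.67 in Val_LNA 8. It was detected in 3 of 16 Ctrl_LNA embryos as well, at 199.48 in Ctrl_LNA 32, 13.5 in Ctrl_LNA 34 and 3.39 in Ctrl_LNA 50.

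Ang was thus near or at 0 in most embryos of both groups, and 2 embryos held most of its reads. Val_LNA 8 had 111 of the 117 Ang reads of its group, and Ctrl_LNA 32 had 221 of the 240 reads of its group. Over the size factors of all embryos, the limit that a count of 0 allows (3 reads) was worth 1.82 to 5.15 normalised counts, counting error only. In a fit of all genes with no filter, the log2 fold change of Ang was -0.12 ± 0.67 (SE), with a 95% interval of -1.48 to 1.23 and an adjusted p of 0.945. Exons of Ang share 219 bases (18.2% of its exon length) with Rnase4 on the same strand, so reads there cannot be assigned to 1 gene.

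Rnh1 encodes the cytosolic ribonuclease inhibitor, a leucine-rich repeat protein that binds angiogenin and its relatives and blocks them (chromosome 7, 141160326 to 141172857, minus strand). Its normalised count ranged over 0, 42.3 and 178 (lowest, median, highest) in Val_LNA and 0, 62.6 and 215 in Ctrl_LNA embryos. It had at least 1 read in 13 of 16 Val_LNA and 15 of 16 Ctrl_LNA embryos, and the groups overlapped over nearly their whole range. The log2 fold change was -0.90 ± 0.79 (SE; 95% interval -2.50 to 0.70, adjusted p = 0.590), and -1.26 without Ctrl_LNA 48 (adjusted p = 0.392). The count tests gave -0.28 (edgeR) and -0.26 (DESeq2).

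The Rnh1 difference was larger in the lower than in the upper runs of library numbers. In the lower runs it averaged 59.4 ± 53.9 in Val_LNA and 95.7 ± 53.6 in Ctrl_LNA embryos (SD, n = 8 each), which gave a log2 fold change of -1.87 in limma (adjusted p = 0.497). In the upper runs it averaged 55.1 ± 63.7 in Val_LNA and 41.8 ± 48.2 in Ctrl_LNA embryos (SD, n = 8 each), which gave a log2 fold change of 0.071, or -0.56 without Ctrl_LNA 48. The interaction of treatment and run, which tests whether the 2 differences are unequal, had an adjusted p of 0.824 in limma.

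The cytosine methyltransferases come next. Nsun2 methylates cytosines of many tRNAs near the variable loop, and its loss in mice is known to increase cleavage by angiogenin (chromosome 13, 69533746 to 69635780, plus strand). Its normalised count was 105, 317 and 860.2 (lowest, median, highest) in Val_LNA embryos and 217, 573 and 1835 in Ctrl_LNA embryos. It was below the Ctrl_LNA median in 14 of 16 Val_LNA embryos, and 4 of these lay below every Ctrl_LNA embryo, while 3 Ctrl_LNA embryos lay above every Val_LNA embryo.

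Nsun2 averaged 357 ± 201 in Val_LNA and 652 ± 395 in Ctrl_LNA embryos (SD, n = 16 each). The log2 fold change was -0.86 ± 0.28 (SE; 95% interval -1.43 to -0.29), with an unadjusted p of 0.00436 and an adjusted p of 0.115 in limma. Without Ctrl_LNA 48, its highest embryo, the log2 fold change was -0.74 (95% interval -1.26 to -0.23, adjusted p = 0.0964). DESeq2 gave -0.87 with an adjusted p of 0.0466, and 0.0874 without Ctrl_LNA 48. edgeR gave -0.90 with an adjusted p of 0.124.

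The Nsun2 difference was of unequal size in the runs. In the upper runs Nsun2 averaged 255 ± 85.3 in Val_LNA and 762 ± 488 in Ctrl_LNA embryos (SD, n = 8 each), which gave a log2 fold change of -1.46 (limma adjusted p = 0.211), or -1.25 without Ctrl_LNA 48 (adjusted p = 0.0634). In the lower runs it averaged 458 ± 237 in Val_LNA and 541 ± 263 in Ctrl_LNA embryos (SD, n = 8 each), which gave a log2 fold change of -0.26 (limma adjusted p = 0.883). The interaction was -1.20 (upper minus lower) in limma, with an unadjusted p of 0.0318 and an adjusted p of 0.817, so a difference between the runs did not pass the test over all genes. Nsun2 shares 165 exon bases with Tent4a and 469 with Gm17108, both on the other strand, and the libraries do not mark the strand.

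Trdmt1, also called Dnmt2, methylates 1 cytosine in the anticodon loop of a few tRNAs and protects them from cleavage (chromosome 2, 13509014 to 13544668, minus strand). Its normalised count was 3.97, 41.2 and 82.3 (lowest, median, highest) in Val_LNA and 0, 25.5 and 87.3 in Ctrl_LNA embryos. All 16 Val_LNA embryos and 13 of 16 Ctrl_LNA embryos had reads, with Ctrl_LNA 44, 47 and 48 at 0, and the groups otherwise overlapped. The log2 fold change was 1.15 ± 0.62 (SE; 95% interval -0.11 to 2.40, adjusted p = 0.379), and 0.88 without Ctrl_LNA 48 (adjusted p = 0.461). In the count tests it was smaller, at 0.45 (edgeR) and 0.53 (DESeq2).

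The embryos at 0 were all in the upper run of the Ctrl_LNA group, and the runs differed accordingly. In the upper runs Trdmt1 averaged 42.7 ± 20.9 in Val_LNA and 17.7 ± 22.9 in Ctrl_LNA embryos (SD, n = 8 each), which gave a log2 fold change of 2.45, or 2.05 without Ctrl_LNA 48. In the lower runs it averaged 45.3 ± 28.8 in Val_LNA and 43.3 ± 24.7 in Ctrl_LNA embryos (SD, n = 8 each), which gave a log2 fold change of -0.15. The interaction was 2.60 in limma, with an unadjusted p of 0.0255 and an adjusted p of 0.817. Trdmt1 rested on 4 to 91 reads per Val_LNA embryo and 0 to 83 per Ctrl_LNA embryo.

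Alkbh1 is a dioxygenase that removes methyl groups from adenosines in tRNA and also oxidises methylated cytosine in the anticodon of some tRNAs (chromosome 12, 87425840 to 87444017, minus strand). Its normalised count was 53.4, 298 and 567 (lowest, median, highest) in Val_LNA and 24.4, 201 and 787 in Ctrl_LNA embryos. Val_LNA embryos lay above the Ctrl_LNA median in 11 of 16 cases, and each group spread over most of the other's range. The log2 fold change was 0.21 ± 0.44 (SE; 95% interval -0.68 to 1.10, adjusted p = 0.838), and 0.21 without Ctrl_LNA 48, in which Alkbh1 was at 182.

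The pseudouridine synthases among the members were Pus1 and Pus7, which turn uridines into pseudouridines. Pus1 acts on tRNAs of the cytosol and the mitochondria, mainly around the anticodon stem (chromosome 5, 110773667 to 110780659, minus strand). Its normalised count was 3.74, 153 and 429 (lowest, median, highest) in Val_LNA and 0, 134 and 392 in Ctrl_LNA embryos. The groups overlapped, with 9 of 16 Val_LNA embryos above the Ctrl_LNA median, and the log2 fold change was -0.18 ± 0.66 (SE; 95% interval -1.52 to 1.16, adjusted p = 0.914). Pus1 was below 10 normalised counts in 2 Val_LNA embryos, and without Ctrl_LNA 48 its log2 fold change was -0.63 (95% interval -1.67 to 0.40). Its exons share 519 bases (23.8%) with Gm26515 and 138 with Gm15559 on the other strand.

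Pus7 modifies tRNAs and mRNAs, and in human stem cells it is known to act on short tRNA fragments that regulate translation (chromosome 5, 23740648 to 23783711, minus strand). Its normalised count was 53.05, 256 and 542 (lowest, median, highest) in Val_LNA embryos and 0, 94.0 and 302 in Ctrl_LNA embryos. In 14 of 16 Val_LNA embryos Pus7 lay above the Ctrl_LNA median, and in 7 it lay above every Ctrl_LNA embryo. In 4 Ctrl_LNA embryos it lay below every Val_LNA embryo, and the remaining embryos overlapped.

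Pus7 averaged 258 ± 125 in Val_LNA and 124 ± 94.4 in Ctrl_LNA embryos (SD, n = 16 each). The log2 fold change was 1.55 ± 0.54 (SE; 95% interval 0.46 to 2.64), with an unadjusted p of 0.00674 and an adjusted p of 0.141 in limma. Without Ctrl_LNA 48, which had 0 reads of Pus7, it was 1.13 (95% interval 0.39 to 1.87, adjusted p = 0.0717). The adjusted p was 0.0145 with array weights and 0.0469 in the exact Wilcoxon test. In the count tests the log2 fold change was smaller, at 1.02 (edgeR, adjusted p = 0.364) and 1.06 (DESeq2, adjusted p = 0.118).

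Within the runs of library numbers Pus7 was higher on average in Val_LNA embryos both times. In the lower runs it averaged 204 ± 119 in Val_LNA and 81.6 ± 46.9 in Ctrl_LNA embryos (SD, n = 8 each), which gave a log2 fold change of 1.32 (limma adjusted p = 0.295). In the upper runs it averaged 312 ± 111 in Val_LNA and 166 ± 113 in Ctrl_LNA embryos (SD, n = 8 each), which gave a log2 fold change of 1.77 (limma adjusted p = 0.508), or 0.85 without Ctrl_LNA 48 (adjusted p = 0.327). The average level of Pus7 itself was higher in the upper than in the lower run of both groups.

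The 2 members that process or hold precursor tRNA did not pass the test, and leaving out Ctrl_LNA 48 turned the sign of both in limma. Elac2 (chromosome 11, 64979038 to 65002069, plus strand) had a normalised count of 185, 313 and 900.2 (lowest, median, highest) in Val_LNA and 1.05, 411 and 1185 in Ctrl_LNA embryos. The lowest Ctrl_LNA value was that of Ctrl_LNA 48, and 11 of 16 Val_LNA embryos lay below the Ctrl_LNA median. The log2 fold change was 0.11 ± 0.51 (SE; 95% interval -0.92 to 1.13, adjusted p = 0.933). Without Ctrl_LNA 48 it was -0.37 ± 0.23 (95% interval -0.83 to 0.08, adjusted p = 0.416), so 1 embryo decided its sign in this fit. With all embryos, Elac2 was already negative in edgeR (-0.35) and DESeq2 (-0.27).

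Ssb (chromosome 2, 69861562 to 69871846, plus strand) had a normalised count of 529, 903 and 2155 (lowest, median, highest) in Val_LNA and 1.05, 1018 and 2011 in Ctrl_LNA embryos. The groups overlapped, with 13 of 16 Val_LNA embryos below the Ctrl_LNA median and Val_LNA 4 above every Ctrl_LNA embryo. Its log2 fold change was 0.35 ± 0.55 (SE; 95% interval -0.76 to 1.46, adjusted p = 0.777) with all embryos. Without Ctrl_LNA 48 it was -0.21 ± 0.18 (95% interval -0.57 to 0.16, adjusted p = 0.594), the narrowest interval of the 8 members, and again of the other sign. In the lower runs Ssb averaged 897 ± 531 in Val_LNA and 1260 ± 368 in Ctrl_LNA embryos (SD, n = 8 each), which gave a log2 fold change of -0.59 (limma adjusted p = 0.418). In the upper runs without Ctrl_LNA 48 the log2 fold change was 0.21, and the interaction without that embryo had an unadjusted p of 0.0222 and an adjusted p of 0.831. Ssb shares 431 exon bases (20% of its exons) with Gm13625 and 169 with Mettl5 on the other strand.

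**Figure D3:**
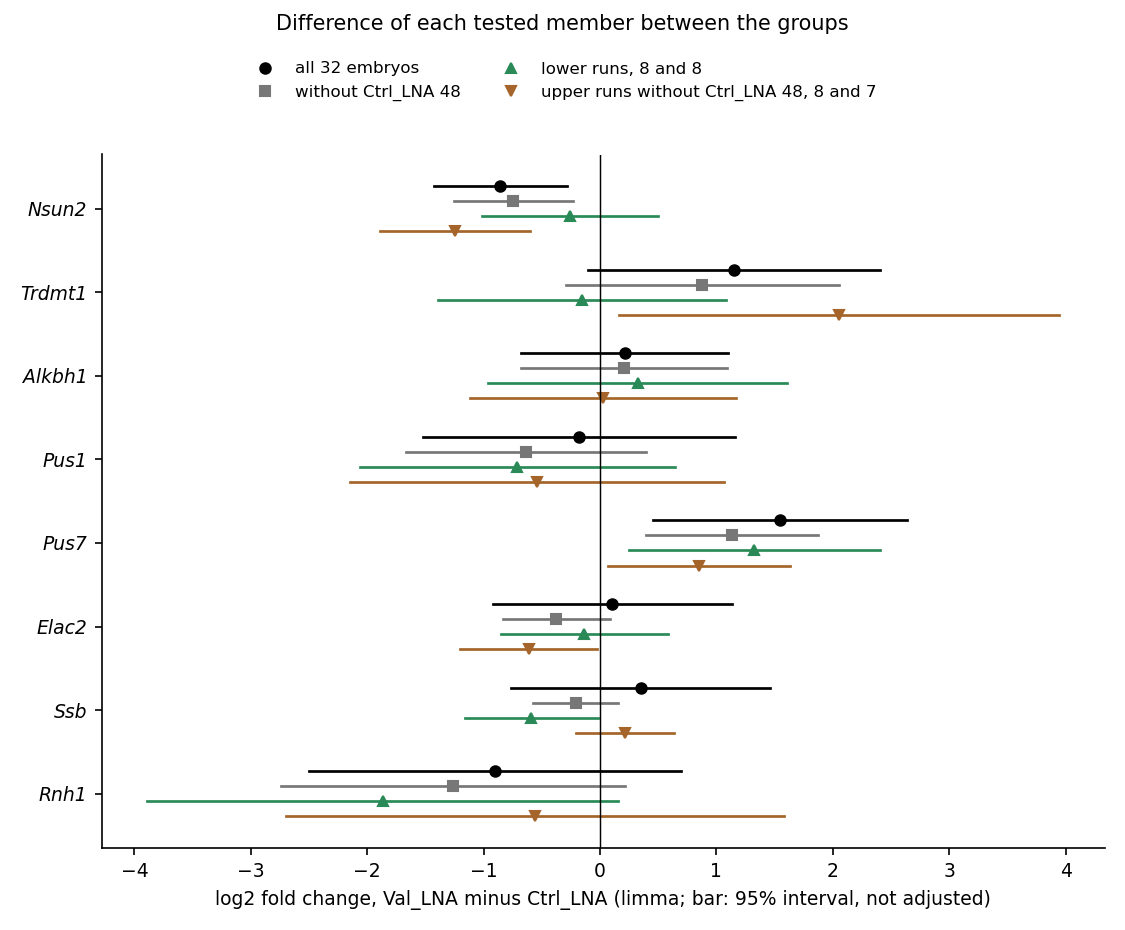
log2 fold change, Val_LNA minus Ctrl_LNA, of the 8 tested members in limma, with 95% intervals not adjusted for the number of genes. Each marker is 1 set of embryos (all 32, without Ctrl_LNA 48, the lower runs, and the upper runs without Ctrl_LNA 48). Pus7 is above 0 and Nsun2 below 0 in all 4 sets. Elac2 and Ssb are above 0 with all 32 embryos and below 0 without Ctrl_LNA 48. In the upper runs without that embryo, Ssb is above 0.

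Across embryos, members were compared on log2(normalised count + 1) over the 31 embryos other than Ctrl_LNA 48, in which most members were near 0 together. Of 28 pairs of tested members, 2 had an adjusted p under 0.05 by both Pearson and Spearman permutation tests. Each test used 100000 resamples and was adjusted over the 28 pairs. How many pairs of other genes reach this level was not computed. Alkbh1 and Pus1 varied together with r = 0.591 (adjusted p = 0.00756) and rho = 0.585 (adjusted p = 0.00896), and r was 0.6 without the 2 embryos farthest from the median. Within the groups, rho was 0.756 in Val_LNA and 0.407 in Ctrl_LNA embryos, and it was 0.7 in the lower and 0.425 in the upper runs.

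Alkbh1 and Pus7 varied together with r = 0.579 (adjusted p = 0.00756) and rho = 0.591 (adjusted p = 0.00896), and r was 0.631 without the 2 embryos farthest from the median. Here rho was 0.679 in Val_LNA and 0.593 in Ctrl_LNA embryos, and 0.482 in the lower and 0.411 in the upper runs. With Ctrl_LNA 48 included, r was 0.472 for Alkbh1 with Pus1 and 0.406 for Alkbh1 with Pus7. Rnh1 with Pus1 passed the Pearson test alone (r = 0.512, adjusted p = 0.0438, permutation test) and not the Spearman test (rho = 0.359, adjusted p = 0.235), with r = 0.612 when Ctrl_LNA 48 was included. Over all 28 pairs rho ran from -0.398 to 0.591 with a median near 0, so the 8 genes did not move as 1 block.

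Some members moved with the embryo's summed stage markers. The 8 genes were each set against total reads, genes detected, summed 2-cell stage transcripts and summed oocyte transcripts, which made 32 relations. Of these, 7 had an adjusted p under 0.05 by both permutation tests, adjusted over the 32 relations. The share of all tested genes with such relations was not computed, so they cannot be called particular to the members. Alkbh1 was lower in embryos with more of the 10 2-cell stage transcripts, such as the Zscan4 genes that mark activation of the embryonic genome (r = -0.703, adjusted p = 0.00032; rho = -0.642, adjusted p = 0.00288, permutation tests). That relation had rho = -0.703 in Val_LNA and -0.643 in Ctrl_LNA embryos, -0.624 in the lower and -0.657 in the upper runs, and r = -0.581 without the 2 farthest embryos. With Ctrl_LNA 48 included it had r = -0.662.

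Nsun2 was lower in embryos with more of the 8 oocyte transcripts, such as those of the egg coat (r = -0.696, adjusted p = 0.00032; rho = -0.662, adjusted p = 0.00288, permutation tests). In these permutation tests across embryos, both groups were shuffled together, so a difference between the groups enters the p-values as well. Within Val_LNA embryos rho was -0.353, within Ctrl_LNA embryos it was -0.761, and it was -0.762 in the lower and -0.596 in the upper runs. Without the 2 farthest embryos r was -0.624, and with Ctrl_LNA 48 included it was -0.632. Nsun2 was also lower in embryos with a higher 2-cell stage sum (r = -0.518, adjusted p = 0.0162; rho = -0.542, adjusted p = 0.0109, permutation tests), with rho = -0.312 in Val_LNA and -0.671 in Ctrl_LNA embryos. In the lower runs rho was -0.556 and in the upper runs -0.564, and r was -0.679 without the 2 farthest embryos and -0.576 with Ctrl_LNA 48 included.

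Pus1 followed the oocyte sum in the same direction (r = -0.704, adjusted p = 0.000427; rho = -0.587, adjusted p = 0.00504, permutation tests), with rho = -0.626 in Val_LNA and -0.532 in Ctrl_LNA embryos, and -0.609 in the lower and -0.536 in the upper runs. Without the 2 farthest embryos r was -0.518, and with Ctrl_LNA 48 included it was -0.529. Over 31 embryos, its relation to the 2-cell stage sum had an adjusted p under 0.05 too (r = -0.488, adjusted p = 0.0272; rho = -0.464, adjusted p = 0.0429, permutation tests), with rho = -0.621 in the lower and -0.321 in the upper runs and r = -0.469 without the 2 farthest embryos. With Ctrl_LNA 48 included, that relation had r = -0.164 and rho = -0.331, so its size rests on leaving that embryo out. The number of genes detected, a measure of library complexity, had r = -0.63 (adjusted p = 0.00088) with Alkbh1 and r = -0.519 (adjusted p = 0.0162) with Pus7 by permutation test over 31 embryos. For Alkbh1, rho with that number was -0.593 over 31 embryos, -0.641 in the lower and -0.396 in the upper runs. For Pus7 it was -0.558 over 31 embryos, -0.406 in the lower and -0.182 in the upper runs. With Ctrl_LNA 48 included, r with the number of genes detected was -0.238 for Alkbh1 and 0.532 for Pus7. The size of r for Alkbh1 and its sign for Pus7 thus rest on leaving that embryo out. By rank the sign held with that embryo included, at rho = -0.534 for Alkbh1 and -0.417 for Pus7.

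**Figure D4:**
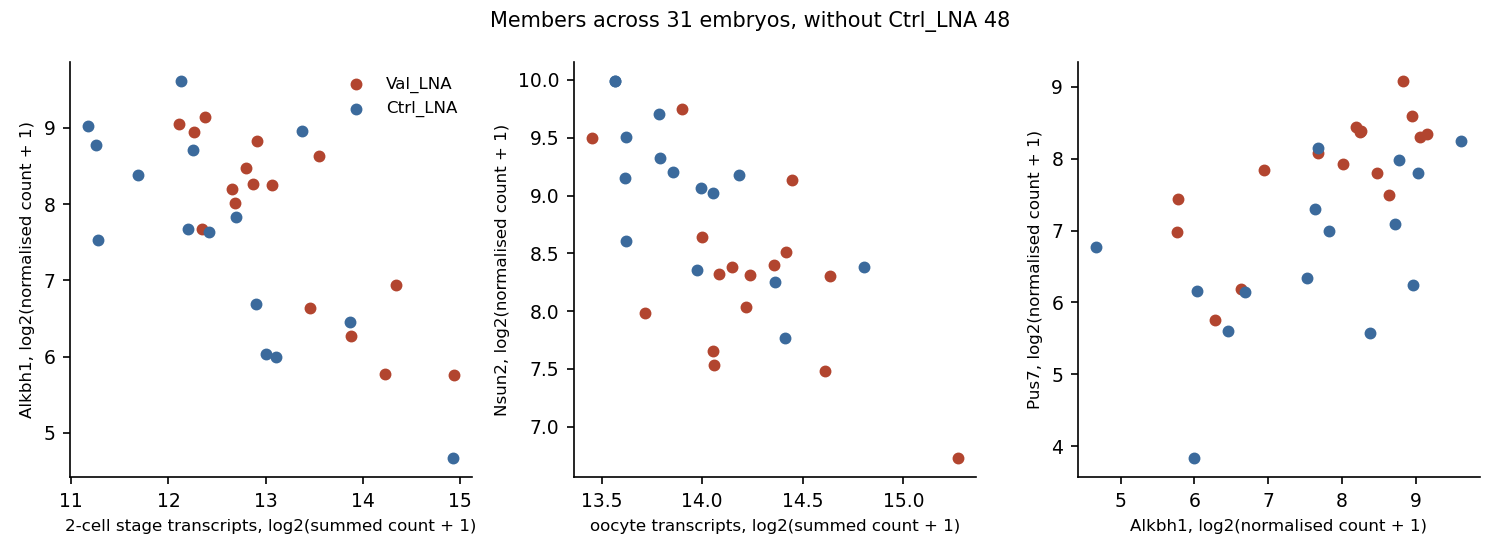
Alkbh1 against summed 2-cell stage transcripts, Nsun2 against summed oocyte transcripts, and Pus7 against Alkbh1, all as log2(count + 1), in 31 embryos without Ctrl_LNA 48. Each point is 1 embryo, coloured by group; the first 2 relations have r of -0.703 and -0.696, and the third has r of 0.579.

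The marker sums themselves were higher on average in Val_LNA embryos. The log2 of the 2-cell stage sum averaged 13.15 in Val_LNA and 12.46 in Ctrl_LNA embryos, a difference of 0.69 (p = 0.0501, permutation test, 100000 resamples), or 0.60 without Ctrl_LNA 48 (p = 0.0842, permutation test). The log2 of the oocyte sum averaged 14.23 in Val_LNA and 13.95 in Ctrl_LNA embryos, a difference of 0.27 (p = 0.0548, permutation test). Since the sums moved with Nsun2, each was entered as a term in the limma fit, a choice made after the data were seen. With the oocyte sum as a term, Nsun2 was at -0.55 (log2 fold change, adjusted p = 0.397), and with the 2-cell stage sum -0.58 (adjusted p = 0.384). Pus7 was at 1.93 (adjusted p = 0.0598) with the oocyte sum and 1.67 (adjusted p = 0.157) with the 2-cell stage sum. Alkbh1, at 0.21 with neither, was at 0.88 with the 2-cell stage sum (unadjusted p = 0.0126, adjusted p = 0.23 in limma).

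For each tested member, the 2 other genes whose pattern over the 32 embryos was most like it were found by Spearman correlation among all tested genes. These are descriptions with no test, and patterns can share depth and stage; names are those of GENCODE M21. Alkbh1 was most like Trmt61a (rho = 0.832), the catalytic subunit of the enzyme that methylates adenosines in the T loop of tRNA, and Nom1 (rho = 0.831). Pus1 was most like Gm26515 (rho = 0.874), the transcript that overlaps it on the other strand, and Ccdc86 (rho = 0.830). Ssb was most like Gm13625 (rho = 0.678), which overlaps it on the other strand too, and Bet1 (rho = 0.677).

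Since strand is not marked, reads of these overlapping pairs cannot be told apart. Pus7 was most like 5730455P16Rik (rho = 0.807) and Trip13 (rho = 0.800), and Nsun2 most like the lysosomal proteases Ctsc (rho = 0.765) and Ctsz (rho = 0.748). Trdmt1 was most like Rnf145 (rho = 0.827) and Gm44089 (rho = 0.769). Elac2 was most like Churc1 (rho = 0.769) and Wars (rho = 0.724), the cytosolic tryptophanyl-tRNA synthetase. Rnh1 had the lowest such values, with Ppifos (rho = 0.667) and Uhrf2 (rho = 0.636). Without Ctrl_LNA 48, the highest of these values were 0.863 for Pus1 with Gm26515 and 0.837 for Alkbh1 with Trmt61a.

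The rest of the tRNA pathway was described in 7 further lists of genes, beside 2.19% called and a median log2 fold change of 0.26 over all tested genes. Of the genes that act on the ends of tRNA, in splicing or in repair, 30 were tested, and 0 were called higher and 1 lower in Val_LNA embryos, with a list median of 0.28. The 1 called gene was Rpp25, which encodes a protein subunit of RNase P and RNase MRP. Rpp25 averaged 706 ± 364 normalised counts in Val_LNA and 1531 ± 534 in Ctrl_LNA embryos (SD, n = 16 each), and fell by 1.21 on the log2 scale (SE 0.23, limma adjusted p = 0.00179). It lay below the Ctrl_LNA median in 15 of 16 Val_LNA embryos, and the fold change was -1.17 without Ctrl_LNA 48 and -1.15 in edgeR (adjusted p = 0.00353).

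Among tRNA methyltransferases and demethylases, 29 were tested, with 1 called higher, 0 lower and a list median of 0.29. Trmt112, the shared activating partner of several methyltransferases, averaged 531 ± 162 in Val_LNA and 256 ± 220 in Ctrl_LNA embryos (SD, n = 16 each), and rose by 1.62 on the log2 scale (SE 0.39, limma adjusted p = 0.0146). All 16 Val_LNA embryos lay above the Ctrl_LNA median for Trmt112. The difference was 1.71 without Ctrl_LNA 48 (adjusted p = 0.00375), 2.46 in the lower and 0.77 in the upper runs. Neither edgeR (0.96, adjusted p = 0.253) nor DESeq2 (1.05, adjusted p = 0.059) called the gene. Without Ctrl_LNA 48, limma also called Mettl8, a methyltransferase of mitochondrial tRNA, at 1.28 (adjusted p = 0.0472); with all embryos it had 1.62 (adjusted p = 0.0867). DESeq2 called Mettl8 with all embryos, at 1.41 (adjusted p = 0.0185).

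Of the pseudouridine synthases other than Pus1 and Pus7, 9 were tested and 0 were called by limma, edgeR or DESeq2, with 4 at an unadjusted p under 0.05 in limma (14.7% of all genes) and 1 in each count test (10.8% of all genes in edgeR, 14.4% in DESeq2). Their median log2 fold change in limma was -0.69, below the 0.26 over all tested genes, whereas Pus7 had 1.55 and Pus1 -0.18. In the count tests their median was nearer that of all tested genes. It was -0.42 beside 0.055 in edgeR and -0.41 beside 0.14 in DESeq2, where Pus7 had 1.02 and 1.06. Pusl1 had the smallest p of the list, at 264 ± 118 in Val_LNA and 414 ± 175 in Ctrl_LNA embryos (SD, n = 16 each) and a log2 fold change of -0.69 (limma adjusted p = 0.212), or -0.62 without Ctrl_LNA 48 (adjusted p = 0.167).

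Of the other tRNA base modification enzymes, 36 were tested, with 0 called higher, 1 called lower and a median of 0.045. The 1 called gene was Elp5, a subunit of the Elongator complex that modifies wobble uridines. Elp5 averaged 807 ± 692 in Val_LNA and 1478 ± 433 in Ctrl_LNA embryos (SD, n = 16 each), and fell by 1.21 on the log2 scale (SE 0.29, limma adjusted p = 0.0152), and had -1.17 without Ctrl_LNA 48 (adjusted p = 0.0134). Neither edgeR (adjusted p = 0.175) nor DESeq2 (adjusted p = 0.059) called it. Without Ctrl_LNA 48, limma called Elp2, another Elongator subunit (-1.52, adjusted p = 0.0333), and Tprkb, a subunit of the KEOPS complex (-2.88, adjusted p = 0.0155), as well. With all embryos Elp2 had -1.06 (adjusted p = 0.414) and Tprkb -2.50 (adjusted p = 0.0999). Neither count test called them with all embryos. Elp2 had -1.07 in edgeR (adjusted p = 0.363) and -0.98 in DESeq2 (adjusted p = 0.218). Tprkb had -1.77 in edgeR (adjusted p = 0.388) and -1.77 in DESeq2 (adjusted p = 0.165).

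Of RNA polymerase III and its factors, which transcribe tRNA genes, 24 were tested, with 1 called higher, 0 lower and a median of -0.071. Polr3f, a subunit that takes part in initiation, averaged 286 ± 146 in Val_LNA and 85.1 ± 57.2 in Ctrl_LNA embryos (SD, n = 16 each), and rose by 2.05 on the log2 scale (SE 0.48, limma adjusted p = 0.0121). It was also called by edgeR (1.66, adjusted p = 0.0131), and the limma difference was 1.65 without Ctrl_LNA 48 (adjusted p = 0.000371), 2.20 in the lower and 1.89 in the upper runs. Polr3f lay above the Ctrl_LNA median in 15 of 16 Val_LNA embryos.

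Of tRNA export and tRNA-binding proteins, 12 were tested and 0 were called by limma, edgeR or DESeq2, each with 2 at an unadjusted p under 0.05, and the median in limma was -0.20. Larp1, an RNA-binding protein of the La-related family, had the smallest p, with a log2 fold change of -2.20 (limma adjusted p = 0.064), and was called without Ctrl_LNA 48 (adjusted p = 0.0268). The count tests gave Larp1 smaller changes, at -1.38 (edgeR, adjusted p = 0.343) and -1.31 (DESeq2, adjusted p = 0.164). Of the RNase A family and other RNases that cut tRNA, 12 were in the table but 4 passed the filter, 0 were called by limma, edgeR or DESeq2, and 0 had an unadjusted p under 0.05 in any of them. Rnaset2a, a lysosomal RNase, was at 195 ± 163 in Val_LNA and 142 ± 108 in Ctrl_LNA embryos (SD, n = 16 each), with a log2 fold change of 0.66 (limma adjusted p = 0.561), or 0.23 without Ctrl_LNA 48, and its list had a median of 0.22.

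An unadjusted p under 0.05 in limma was reached by 14.7% of all tested genes. It was reached by 3 of 30 genes of end processing, splicing and repair, 4 of 29 methyltransferases and demethylases, 4 of 9 pseudouridine synthases and 3 of 36 other modification enzymes. It was also reached by 8 of 24 genes of RNA polymerase III, 2 of 12 export and binding proteins and 0 of 4 genes of the RNase list. The count tests reached that level for 10.8% (edgeR) and 14.4% (DESeq2) of all tested genes. For the pseudouridine synthases they did so for 1 of 9 in each, and for RNA polymerase III for 4 of 24 in edgeR and 6 of 24 in DESeq2.

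The list medians moved with Ctrl_LNA 48, as did that of all genes. Without that embryo the median was -0.066 for end processing, splicing and repair, -0.023 for methyltransferases and demethylases, -0.62 for pseudouridine synthases and -0.17 for other modification enzymes. It was -0.22 for RNA polymerase III, -0.12 for export and binding proteins and 0.10 for the RNase list, beside 0.068 for all tested genes.

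**Figure D5:**
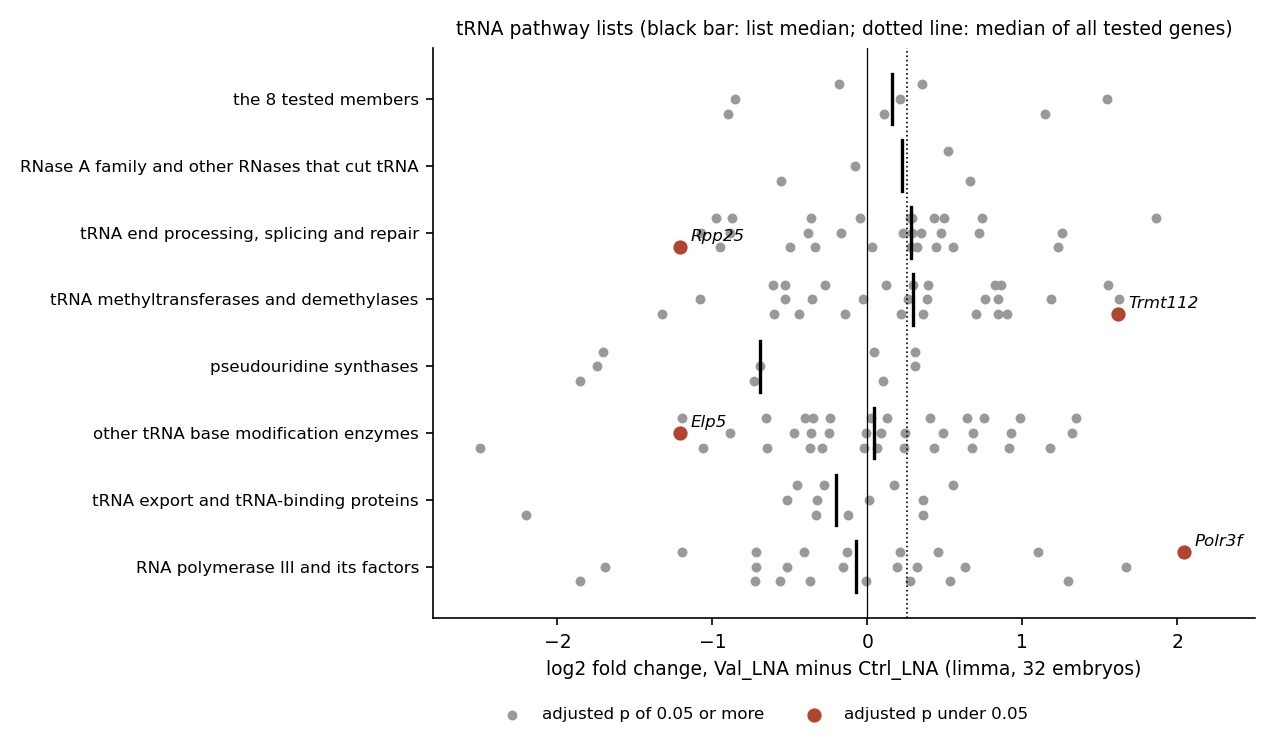
log2 fold change, Val_LNA minus Ctrl_LNA, of every tested gene in the tRNA pathway lists, in limma over 32 embryos. Each point is 1 gene, the black bar is the list median, the dotted line the median of all tested genes (0.26), and red points have an adjusted p under 0.05: Rpp25, Trmt112, Elp5 and Polr3f, none of them a member.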

How the data were processed

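Polyadenylated RNA of 32 single embryos was sequenced; per the labels' protocols, cDNA was made by template switching and amplified by 20 PCR cycles, with no molecular identifiers named and no strand marked. The submitters' processing notes name build mm10 and the tools Bowtie2, STAR, SAMtools and DESeq2; what each did, and with which annotation, is not given in the sources used here. Per the file headers, the deposited signal per gene and embryo is a count the authors divided by the DESeq size factor of the embryo, deposited beside it. Value times size factor was whole for 1095136 of 1095136 values (100%, tolerance 0.01, largest distance 0.0086); these recovered reads entered edgeR (189 genes called) and DESeq2 (547). No library looked like a copy of another (lowest chi-square 23.1 per gene over 240 within-group pairs). The labels do not tell whether embryos came from different matings or injections, so a p-value reflects the spread among these embryos alone.

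The test was limma 3.58.1 (R 4.3.3; trend and robust) on log2(normalised count + 1) of 15559 genes, with calls at an adjusted p (Benjamini-Hochberg) under 0.05 and no covariates. Adding 1 shrinks changes between low values, but embryos at 0 weigh heavily on this scale. For Rnh1, Trdmt1 and Pus7, each with at least 1 embryo at 0, it gave larger changes than the count tests. edgeR 4.0.16, DESeq2 1.42.0, other filters, pseudocounts, centring and embryos left out were alternatives. Only the main limma fit was tried on simulated data, which held no library like Ctrl_LNA 48. Coordinates and exon lengths are from GENCODE M21 (34179 of 34223 genes matched, 99.9%), counted from 1. The members, lists and tests were chosen with earlier results of these data known. Named genes were the 9 members, up to 4 called genes of each list or the 1 with the smallest p, and the 2 genes most like each member. Elp2, Tprkb and Mettl8 were added because limma called them without Ctrl_LNA 48. Ang3, Ang4, Ang6, Prorp and Trp53rk were not found under these symbols and were not analysed here.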

Additional observations from a re-analysis of the deposited data

How the results depend on the processing

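No paired analysis was made, because the labels do not tell which embryos shared a mating or an injection. Counts of called genes over the whole table moved by over 1.5 times, against 137 higher and 204 lower in the main limma test. The counts higher in Val_LNA were 87 with no filter, 91 with a stricter filter (50 normalised counts in 16 embryos), 61 with embryos centred on their median gene, 353 with array weights, 282 in the exact Wilcoxon test, 30 in edgeR, 90 in edgeR without Ctrl_LNA 48, 207 in DESeq2, 346 in DESeq2 without it, 2 in the upper runs and 7 in the upper runs without it. The counts lower in Val_LNA were 564 with array weights, 363 in the Wilcoxon test, 340 in DESeq2, 383 in DESeq2 without Ctrl_LNA 48, 83 in the lower runs, 33 in the upper runs and 124 in the upper runs without it. Leaving out 1 embryo at a time gave 100 to 245 higher and 176 to 409 lower; the highest of each came without Ctrl_LNA 48.

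Of the members, 1 was called higher with array weights and in the Wilcoxon test (Pus7, at 1.36 and 1.29), 1 lower in DESeq2 (Nsun2, at -0.87), and 0 in each direction when any 1 embryo was left out of limma. Over all settings the adjusted p ran from 0.0145 to 0.508 for Pus7 and from 0.0466 to 0.883 for Nsun2, and neither log2 fold change turned. With 1 embryo left out, the log2 fold change ran from 1.13 to 1.69 for Pus7, -0.95 to -0.74 for Nsun2, 0.88 to 1.34 for Trdmt1, -1.26 to -0.60 for Rnh1, -0.37 to 0.24 for Elac2, -0.21 to 0.45 for Ssb, 0.02 to 0.35 for Alkbh1 and -0.63 to 0.11 for Pus1.

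Signs turned for Rnh1 in the upper runs (0.071), for Trdmt1 in the lower runs (-0.15), and for Alkbh1 with centring (-0.24) and in edgeR without Ctrl_LNA 48 (-0.0013). Elac2 turned with a pseudocount of 10 (-0.033), centring (-0.34), the 2-cell stage sum as a term (-0.31), array weights (-0.41), without Ctrl_LNA 48 (-0.37), in the lower runs (-0.13), the upper runs without it (-0.61), edgeR (-0.35, and -0.44 without it), DESeq2 (-0.27, and -0.37 without it) and the Wilcoxon test (-0.34). Ssb turned with centring (-0.10), array weights (-0.21), without Ctrl_LNA 48 (-0.21), in the lower runs (-0.59), edgeR (-0.17, and -0.25 without it), DESeq2 (-0.11, and -0.20 without it) and the Wilcoxon test (-0.20). Pus1 turned with the 2-cell stage sum (0.042) or the oocyte sum (0.57) as a term, in the upper runs (0.35), and without Val_LNA 3 (0.038) or Val_LNA 14 (0.11). The cause was not tested, apart from Ctrl_LNA 48, without which Elac2 and Ssb turned in the main limma test. The fits of the upper runs and of DESeq2 without that embryo, and those with marker sums as terms, were chosen after the data were seen. At 0 to 91 reads per embryo, Trdmt1 was the most limited by depth after Ang.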
